A study of Mus musculus with 8 samples.

Results

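Transcripts of 10 genes of the fibroblast growth factor (FGF) system were followed in the epididymal white fat of male mice: the secreted ligands Fgf1, Fgf2, Fgf7, Fgf10 and Fgf21, the intracellular family members Fgf11 and Fgf13, the receptors Fgfr1 and Fgfr2, and the co-receptor gene Klb. They were the rows, of 24821 genes in the deposited table, whose identifiers carry these symbols in GENCODE M21, and each symbol matched 1 row. The list was drawn up with values of these libraries in view and without a stated threshold. The members' differences between the groups are therefore given as a description, with no p-value, and the number of members that passed a threshold is printed only beside the share of all genes that did. Tests are given for other genes of the pathway, which the list does not hold. Those genes too were listed with earlier results of these data known, so their p-values are not free of that choice.

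The study compared 4 libraries from Ccdc92 knockout (KO) males with 4 libraries from wild type (WT) littermates of the same age, all on a C57BL/6 background. Every animal had eaten, for 14 weeks, a high-fat diet (60% fat, 20% protein, 20% carbohydrate). The labels do not say which part of Ccdc92 was removed, in which cells, or how old the animals were. No label states that each library is a separate animal, and p-values then reflect the spread among these samples alone, possibly technical. Values are normalized counts, which are reads per gene divided by 1 size factor per library.

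FGFs are signalling proteins that bind tyrosine kinase receptors together with heparan sulphate, and FGF21, an endocrine member, needs the co-receptor beta-klotho, the product of Klb, instead. In fat, FGF21 acts on adipocytes through FGFR1 and beta-klotho, FGF1 takes part in the remodelling of the depot during high-fat feeding in mice, and FGF10 promotes the formation of adipocytes from their precursors. The FGF11 to FGF14 group is not secreted in the usual way and is known for binding voltage-gated sodium channels inside the cell.

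Libraries held 23681088 to 33817478 reads assigned to genes. The targeted gene Ccdc92 had 9.19, 5.13, 9.67 and 4.85 normalized counts in KO replicates 1 to 4, against 54.1, 68.3, 106 and 99.2 in WT replicates 1 to 4, which fits the labels. The adipocyte marker Adipoq was abundant in both groups, at 68453 to 92421 in KO and 12578 to 27239 in WT. Crisp1, a gene of the epididymal duct, was at 0 to 37.6 in KO and at 26575 to 71824 in WT, so the WT libraries also held transcripts of the male tract. KO replicate 3 stood apart by a red cell transcript, Hbb-bs, at 5.78% of its normalized counts, where no gene exceeded 2.91% in another library. It also had the highest KO sum of the 10 epididymis and vas deferens markers, 1190, against 21.8 to 683 in the other KO libraries. Of these markers Lcn5 was at 378 in KO replicate 3, against 5.62 to 357 in WT, whereas Epcam and Cdh1 were highest in KO replicate 1 among KO libraries. Genes that reached 10 normalized counts in 4 or more libraries were tested. Of these 17798 genes, 20.2% were higher and 21.5% lower in KO by limma (adjusted p under 0.05), or 41.7% together. Under quantile normalization 58.5% of the calls were higher in KO, against 48.4% without it.

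For Fgf2, Fgf10, Fgf11 and Klb, all 4 KO libraries lay above all 4 WT libraries, by 2.13-fold to 2.82-fold on the fitted scale, and Fgf7 was lower in every KO library, by 2.22-fold. Fgf1, Fgf13, Fgf21, Fgfr1 and Fgfr2 overlapped between the groups. All 10 members passed the filter on low values. Of them, 4 were higher and 1 lower in KO at a limma adjusted p under 0.05, where 41.7% of all genes tested passed, and the same 5 did not overlap between groups, where 42.1% of all genes tested did not (21.0% with KO above and 21.1% with KO below WT). The choice of members used this contrast, so nothing is read from these counts. Log2 fold changes below are KO over WT of the normalized count + 1.

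**Figure D1:**
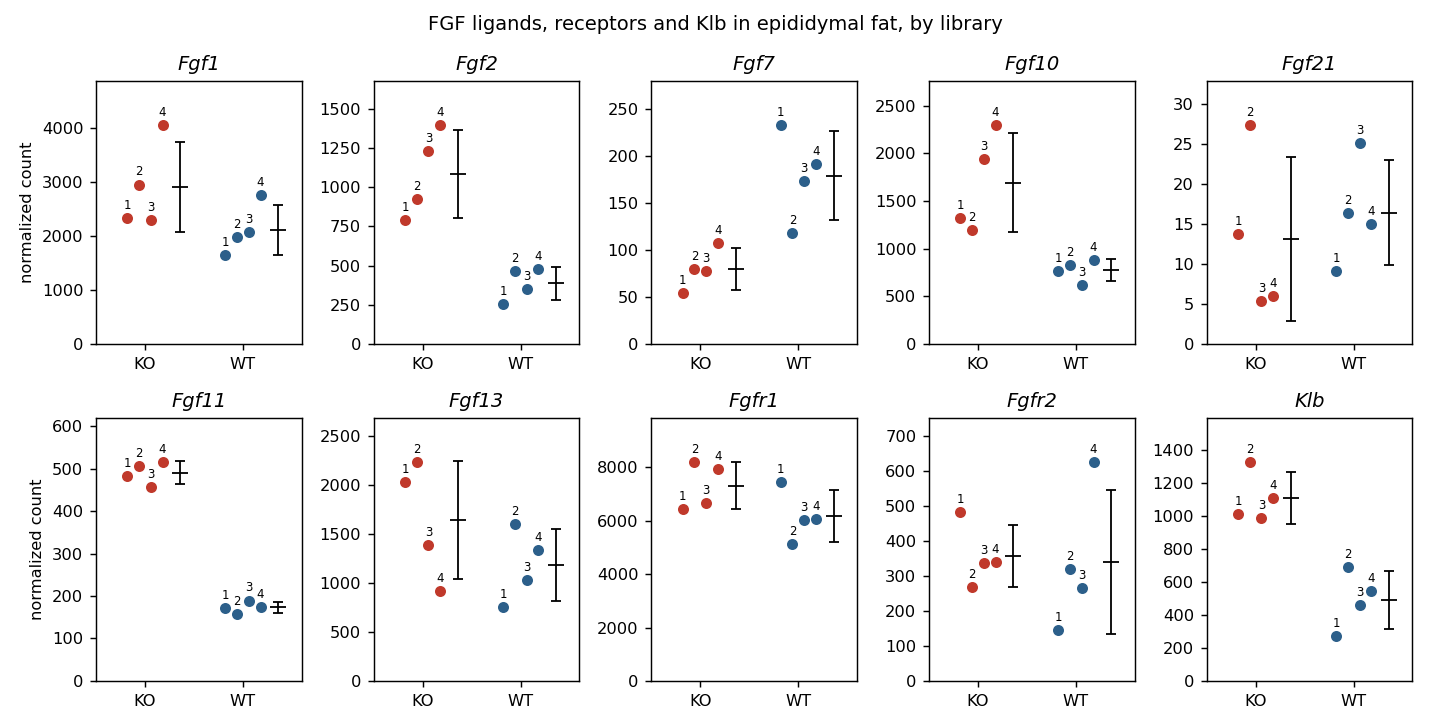
Normalized counts of the 10 genes in each library, with KO left and WT right in every panel, replicate numbers beside the points, and the mean with SD (n = 4) as bars. The 4 KO points lie above all WT points for Fgf2, Fgf10, Fgf11 and Klb, and below them for Fgf7. For the rest the groups overlap, with all 4 KO points inside the WT range only for Fgfr2.

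Upstream sequence is shown for the 5 genes whose groups did not overlap, since the results turn on them, and for Fgf21 as the one hardly expressed member. Each run is the 250 bases before the RefSeq transcription start on build GRCm38.p6, read 5′ to 3′ on the gene's strand. They lie at chr3:37348403-37348652 on the plus strand for Fgf2, chr13:118714449-118714698 plus for Fgf10, chr2:126034408-126034657 plus for Fgf7, chr11:69802281-69802530 minus for Fgf11, chr5:65348161-65348410 plus for Klb and chr7:45615491-45615740 minus for Fgf21. Capitals mark matches, on either strand, to AGGTCA (a nuclear receptor site), ACGTG (core of the hypoxia response element), CACGTG (E-box), TGACGTCA (cAMP response element), GGGCGG (the GC box), TATAAA (the TATA box) or to the promoter box CCAAT. The hypoxia core lies within the E-box, so these overlap. Pairs of the nuclear receptor site with 1 base between them, the direct repeat that PPAR and RXR bind, were searched too and matched in none of the windows printed.
Fgf2: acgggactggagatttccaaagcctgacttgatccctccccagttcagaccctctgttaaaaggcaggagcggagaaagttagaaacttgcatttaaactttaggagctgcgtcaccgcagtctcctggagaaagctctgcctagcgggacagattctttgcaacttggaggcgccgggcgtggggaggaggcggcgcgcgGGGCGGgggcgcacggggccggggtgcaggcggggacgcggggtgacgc
Fgf10: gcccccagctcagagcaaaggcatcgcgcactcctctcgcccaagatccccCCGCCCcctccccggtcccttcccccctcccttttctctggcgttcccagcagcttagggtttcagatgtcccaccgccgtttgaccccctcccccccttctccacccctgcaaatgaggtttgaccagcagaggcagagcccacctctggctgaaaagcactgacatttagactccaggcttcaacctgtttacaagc
Fgf7: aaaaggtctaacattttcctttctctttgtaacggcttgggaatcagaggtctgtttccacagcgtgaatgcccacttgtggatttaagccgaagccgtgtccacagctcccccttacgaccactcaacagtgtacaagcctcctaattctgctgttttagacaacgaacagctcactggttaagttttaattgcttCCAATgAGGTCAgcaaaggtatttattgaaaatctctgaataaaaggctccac
Fgf11: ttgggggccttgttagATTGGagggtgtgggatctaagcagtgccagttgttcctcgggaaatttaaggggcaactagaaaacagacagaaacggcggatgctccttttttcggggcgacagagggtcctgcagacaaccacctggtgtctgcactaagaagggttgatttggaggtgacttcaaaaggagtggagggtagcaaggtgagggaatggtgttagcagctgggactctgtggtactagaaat
Klb: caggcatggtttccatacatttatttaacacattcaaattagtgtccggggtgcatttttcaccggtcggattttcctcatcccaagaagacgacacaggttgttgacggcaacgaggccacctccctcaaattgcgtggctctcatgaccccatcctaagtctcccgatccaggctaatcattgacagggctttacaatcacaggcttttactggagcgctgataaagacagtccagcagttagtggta
Fgf21: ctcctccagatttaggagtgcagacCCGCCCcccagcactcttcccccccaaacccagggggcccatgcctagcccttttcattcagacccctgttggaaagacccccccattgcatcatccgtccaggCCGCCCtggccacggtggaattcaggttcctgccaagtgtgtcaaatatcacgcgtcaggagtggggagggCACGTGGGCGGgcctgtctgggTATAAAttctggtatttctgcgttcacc

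No match was common to the 4 genes that were higher in KO. Fgf2 and Fgf10 each held 1 GC box, 49 and 199 bases before the start, a motif found in 32.7% of the 32851 windows of this length in the RefSeq table. Fgf11 held 1 CCAAT box, 234 bases before the start, which 33.8% of windows contain, and Klb held none of the 8 motifs. Fgf7 held a CCAAT box 53 bases before the start, next to an AGGTCA site at 47 bases that 14.0% of windows contain. The Fgf21 window had the most matches, with 3 GC boxes, an E-box in 6.02% of all windows, and a TATA box 28 bases before the start that 12.4% contain. GC content was 62.4% for Fgf2, 61.2% for Fgf10, 51.2% for Fgf11, 48.0% for Klb, 43.6% for Fgf7 and 59.6% for Fgf21, against a median of 52.4% over all windows. The GENCODE start of the gene lies elsewhere for some of them, 44908 bases upstream of the RefSeq start for Fgf10 and 423 bases downstream for Fgf11. The counts do not say which start was used, and a match is a run of letters, not evidence of binding.

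Among the secreted ligands, Fgf2 (ENSMUSG00000037225.13, chromosome 3, 37348346 to 37410108, plus strand, GRCm38), which encodes basic FGF, a growth factor for fibroblasts and endothelial cells, differed most. It had 789, 922, 1228 and 1396 normalized counts in KO replicates 1 to 4, against 253, 466, 351 and 476 in WT replicates 1 to 4. The lowest KO library stood well above the highest WT library. Means were 1084 ± 277 in KO and 387 ± 105 in WT (SD, n = 4 each), a log2 fold change of 1.49 (SE 0.25). The antisense gene Nudt6 shares 640 exonic bases with Fgf2, 9.44% of its exonic length. Nudt6 had 119 to 184 normalized counts in KO and 82.6 to 107 in WT, also without overlap, and since the strand setting of the counting is not given, reads in the shared part cannot be told apart.

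Fgf10 (ENSMUSG00000021732.14, chromosome 13, 118669791 to 118792115, plus strand) and Fgf7 (ENSMUSG00000027208.14, chromosome 2, 126034658 to 126091185, plus strand) encode the 2 best known ligands of the IIIb form of FGFR2, made by mesenchymal cells. They lay on opposite sides of WT. Fgf10 had 1320.3, 1199.8, 1944 and 2297 normalized counts in KO replicates 1 to 4, against 767, 825, 615 and 883 in WT replicates 1 to 4. KO replicates 3 and 4 were the highest, and the lowest KO value still exceeded every WT value. The log2 fold change was 1.09 (SE 0.22).

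Fgf7 had 54.0, 80.3, 77.4 and 108 normalized counts in KO replicates 1 to 4, against 233, 118, 174 and 191 in WT replicates 1 to 4. The groups were separated only narrowly, by KO replicate 4 and WT replicate 2. Means were 79.9 ± 22.1 in KO and 179 ± 47.5 in WT (SD, n = 4 each), and the log2 fold change was -1.15 (SE 0.26). Per kilobase of exon, Fgf10 exceeded Fgf7 by 17.3, 10.5, 17.7 and 15.02 times in KO replicates 1 to 4, against 2.32, 4.92, 2.50 and 3.26 times in WT replicates 1 to 4. The ratio of these ligand transcripts averaged 15.1 ± 3.28 in KO and 3.25 ± 1.19 in WT (SD, n = 4 each). With Fgf10 higher and Fgf7 lower in every KO library, this ratio could not overlap, so its separation is no further result. Of 7 such ratios between members, 3 did not overlap between the groups and are plotted, and the other 4 overlapped. How often ratios of other gene pairs do not overlap was not computed, so nothing is read from this count. Fgfr1 over Fgfr2 was 14.0 to 31.9 in KO and 10.1 to 53.5 in WT, and Fgf13 over Fgf11 was 1.34 to 3.35 in KO and 3.33 to 7.67 in WT. Fgf10 over Fgfr2 was 6.14 to 15.1 in KO and 3.16 to 11.8 in WT, and Fgf1 over Fgf21 was 18.8 to 116 in KO and 14.4 to 32.1 in WT.

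**Figure D2:**
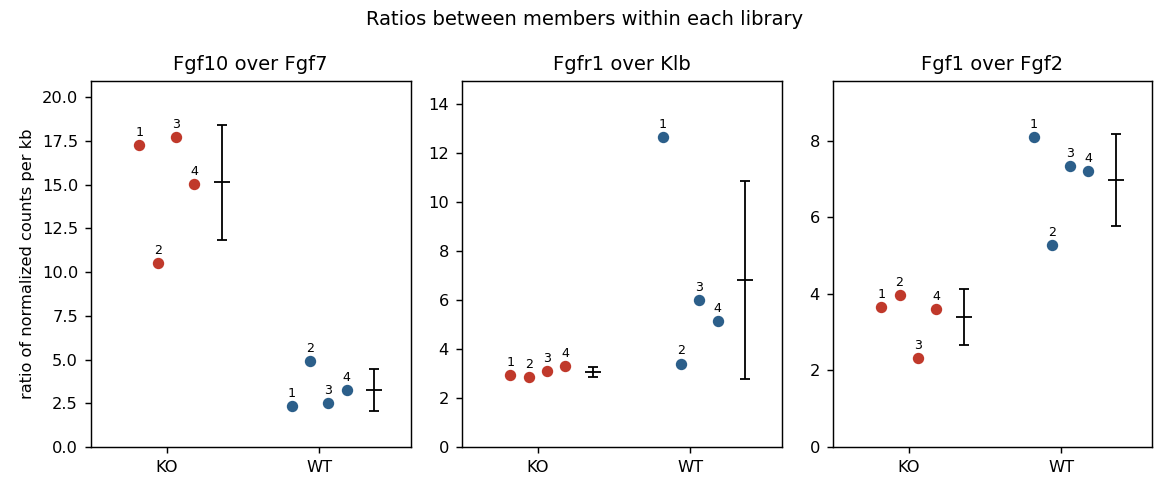
Ratios of normalized counts per kilobase of exon within each library for 3 pairs of members, picked from 7 because their groups did not overlap, with KO left and WT right, replicate numbers beside the points, and the mean with SD (n = 4) as bars. Fgf10 over Fgf7 is higher in all KO libraries, and Fgfr1 over Klb and Fgf1 over Fgf2 are lower in all KO libraries, WT replicate 1 lying far above the other WT libraries for Fgfr1 over Klb.

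Fgf1 (ENSMUSG00000036585.16, chromosome 18, 38838673 to 38929472, minus strand) encodes acidic FGF, which can bind every FGF receptor. Its normalized counts were 2330.4, 2955, 2293 and 4058 in KO replicates 1 to 4, against 1652, 1984, 2077 and 2760.3 in WT replicates 1 to 4. The KO mean was higher, but WT replicate 4 exceeded KO replicates 1 and 3. The log2 fold change was 0.44 (SE 0.21), and it ranged from 0.27 without KO replicate 4 to 0.68 without KO replicate 3 and WT replicate 4 together. Per kilobase, Fgf1 exceeded Fgf2 by 2.32 to 3.98 times in KO and by 5.28 to 8.10 times in WT.

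Fgf21 (ENSMUSG00000030827.5, chromosome 7, 45613886 to 45615490, minus strand) encodes an endocrine ligand that comes mainly from the liver. It was close to the limit of detection here, with 12, 32, 5 and 5 reads in KO replicates 1 to 4, against 10, 17, 27 and 16 in WT replicates 1 to 4. The 95% exact Poisson interval, which covers counting error only, was 1.62 to 11.7 for 5 reads and 21.9 to 45.2 for 32 reads. Both the lowest and the highest value were in KO, and the groups overlapped over most of their range. Normalized counts averaged 13.1 ± 10.2 in KO and 16.4 ± 6.57 in WT (SD, n = 4 each), a log2 fold change of -0.49 (SE 0.53), which was -0.92 without KO replicate 2 and -0.20 without KO replicate 3. The within-group SD of Fgf21 was 0.81 on the log2 scale, while counting error gives 0.45, so the spread was not one of depth alone. A difference in Fgf21 smaller than this spread was not detectable in these libraries.

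The intracellular members behaved unlike each other. Fgf11 (ENSMUSG00000042826.13, chromosome 11, 69796068 to 69801857, minus strand) had 483, 506, 456 and 517 normalized counts in KO replicates 1 to 4, against 172, 158, 189 and 175 in WT replicates 1 to 4. The libraries of each group lay close together and far from the other group. Means were 490.2 ± 27.0 in KO and 173 ± 13.0 in WT (SD, n = 4 each), a log2 fold change of 1.495 (SE 0.095). The within-group SD of its log2 values was 0.095, close to the 0.089 that counting error alone gives at its 164 to 592 reads, and 9.51% of the genes tested had a smaller one.

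Fgf13 (ENSMUSG00000031137.17, chromosome X, 59062145 to 59568071, minus strand) had 2029, 2237, 1388 and 917 normalized counts in KO replicates 1 to 4, against 755, 1596, 1029 and 1336 in WT replicates 1 to 4. KO replicates 1 and 2 were above every WT library, whereas KO replicates 3 and 4 fell within the WT range. The log2 fold change was 0.45 (SE 0.32), between 0.25 without WT replicate 1 and 0.70 without KO replicate 4. Its within-group SD was 0.53 on the log2 scale, larger than that of 81.4% of the genes tested, while counting error gives 0.041. The other 2 genes of this group, Fgf12 and Fgf14, are described with the pathway.

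The co-receptor and receptors also differed in pattern. Klb (ENSMUSG00000029195.10, chromosome 5, 65348314 to 65384007, plus strand) had 1012, 1332, 987 and 1108 normalized counts in KO replicates 1 to 4, against 272, 694, 463 and 544 in WT replicates 1 to 4. All KO libraries were higher, and WT replicate 1 was the lowest of all. Means were 1110.0 ± 157 in KO and 493 ± 176 in WT (SD, n = 4 each), a log2 fold change of 1.24 (SE 0.26), which was 0.98 without WT replicate 1. Klb lies on the chromosome that carries Ccdc92.

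Fgfr1 (ENSMUSG00000031565.18, chromosome 8, 25513654 to 25575718, plus strand), the receptor that pairs with beta-klotho in fat, had 6449, 8214, 6660.1 and 7942 normalized counts in KO replicates 1 to 4, against 7459, 5129.6, 6031 and 6079 in WT replicates 1 to 4. The groups overlapped because WT replicate 1, which was low for Klb, was high for Fgfr1. The log2 fold change was 0.25 (SE 0.13). Per kilobase, Fgfr1 exceeded Klb by 2.93, 2.84, 3.11 and 3.30 times in KO replicates 1 to 4, against 12.7, 3.40, 6.00 and 5.15 times in WT replicates 1 to 4. The KO ratios were lower and nearly alike, and WT replicate 2 came close to them.

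Fgfr2 (ENSMUSG00000030849.18, chromosome 7, 130162451 to 133123350, minus strand) encodes the receptor whose IIIb form, of epithelia, binds FGF7 and FGF10 and whose IIIc form occurs in mesenchyme, and gene-level counts do not separate these forms. It had 483, 269, 338 and 341 normalized counts in KO replicates 1 to 4, against 146, 321, 266 and 627 in WT replicates 1 to 4. Both extremes were in WT, so that the KO libraries lay inside the WT range. The log2 fold change was 0.23 (SE 0.40), -0.11 without WT replicate 1 and 0.59 without WT replicate 4. WT replicate 4 also had the highest summed level of the 6 smooth muscle and pericyte markers, at 53878, against 11631 to 21331 in the other WT libraries and 19280.3 to 31018 in KO, and it stood apart in epithelial genes too. Akr1b7, of the vas deferens, was at 80636 in WT replicate 4, against 188 to 212 in the other WT libraries, the keratin gene Krt19 at 2348, against 192 to 373, and Adam7, of the epididymis, at 0.936, against 7805 to 19829. The part of these cells in the Fgfr2 value was not tested. Per 1000 counts of these markers Fgfr2 was at 8.80 to 17.7 in KO and 11.6 to 16.9 in WT. Ctbp2, on the same strand, shares 314 exonic bases with Fgfr2, 3.04% of the exonic length of Fgfr2. It had 855 to 928 normalized counts in KO and 973 to 1159 in WT, and how reads in the shared part were assigned is not given. The RefSeq start of Fgfr2 lies 2856542 bases downstream of the GENCODE start.

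**Figure D3:**
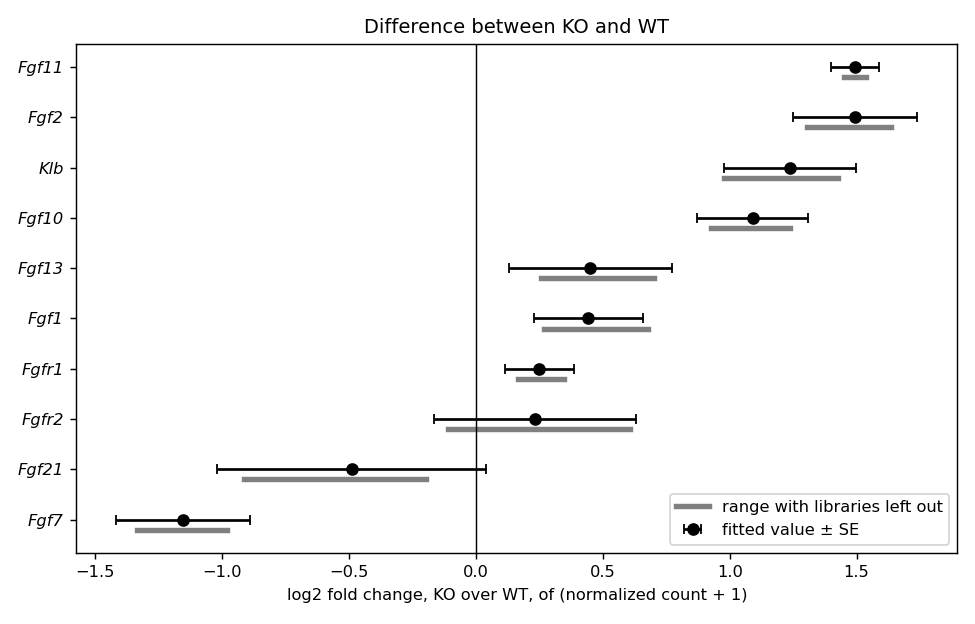
Fitted log2 fold change, KO over WT, of each gene with its SE (points and thin bars), and the range of the value when libraries were left out (thick grey bars). Both bars of Fgfr2 and the SE bar of Fgf21 cross 0, and those of the other 8 genes do not, although Fgf1, Fgf13 and Fgfr1 overlapped between the groups.

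Levels between genes were compared per kilobase of exon in GENCODE M21. Fgfr1 was the most abundant member in both groups, at 741 ± 90.2 normalized counts per kilobase in KO and 625 ± 97.3 in WT (SD, n = 4 each), and Fgf21 the least, at 13.8 ± 10.7 in KO and 17.2 ± 6.90 in WT. In KO, the order from high to low was Fgfr1, Fgf1, Fgf13, Fgf10, Klb, Fgf11, Fgf2, Fgfr2, Fgf7 and Fgf21, and in WT it was Fgfr1, Fgf1, Fgf13, Fgf10, Klb, Fgf2, Fgf11, Fgf7, Fgfr2 and Fgf21. The first 5 places and the last were thus the same. In KO, neighbours in this order did not overlap only between Klb and Fgf11 and between Fgf2 and Fgfr2. In WT, only Fgfr1 and Fgf1 did not overlap.

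**Figure D4:**
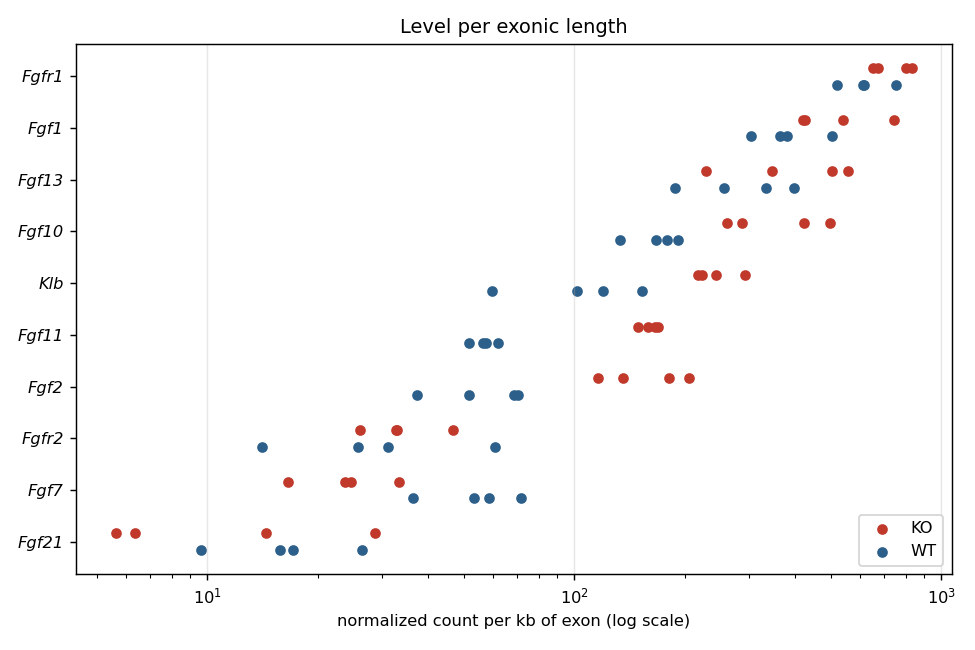
Normalized counts per kilobase of exon, on a log axis, for each gene in the 4 KO libraries (upper points) and the 4 WT libraries (lower points), ordered by the KO mean. Fgfr1 leads with 519 to 832 over all libraries, and Fgf21 is last with 5.65 to 28.8.

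Within groups, several members were extreme in the same library. The share of all genes extreme in each library was not computed, so nothing particular to the members is read from this. WT replicate 1 was the lowest WT library for 6 members, Fgf1, Fgf2, Fgf13, Fgf21, Fgfr2 and Klb, and the highest for Fgf7 and Fgfr1. It also had the lowest summed level of the 10 adipocyte markers in WT, 243351, and the highest of the 10 macrophage markers, 256396. KO replicate 4 was the highest KO library for the 5 ligand and intracellular genes Fgf1, Fgf2, Fgf7, Fgf10 and Fgf11, and the lowest for Fgf13. Replicate numbers were not taken to pair the groups.

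Marker transcripts of several cell types differed between the groups as well. In such bulk samples fewer cells of a type and less RNA per cell cannot be told apart, so cell makeup itself was not measured. Adipocyte markers were called higher in KO in 9 of 10 genes, with sums of 1134408 to 1547852 in KO and 243351 to 517219 in WT. Macrophage markers were called lower in 10 of 10, with sums of 41636 to 65521 in KO and 117741 to 256396 in WT. Markers of progenitors and fibroblasts were called lower in 4 of 10 and higher in 0, with sums of 61732 to 98832 in KO and 84612 to 120005 in WT, and 6 of the 10 did not pass. Endothelial markers were called higher in 4 of 8, with sums of 35722 to 43013 in KO and 17012 to 31179 in WT. No marker of these lists was at 0 in any library. Set against these sums, the direction of a member turned with the marker list used. Per 1000 adipocyte marker counts, 7 members were lower in KO without overlap, 0 were higher, and Fgf2, Fgf11 and Klb overlapped. That marker sum averaged 1349776 in KO and 374166 in WT. It follows its most abundant genes, and the markers differed unequally. Car3 averaged 474528 in KO and 82497 in WT, Fabp4 262039 and 104869, Pparg 4880 and 2465, and Lep 42023 and 42883. The share of all genes without overlap on these scales was not computed, so nothing is read from such counts. Klb was at 0.654 to 1.17 in KO and 1.12 to 1.47 in WT on that scale, Fgf11 at 0.302 to 0.446 in KO and 0.305 to 0.705 in WT, and Fgf10 at 1.06 to 1.48 in KO and 1.595 to 3.15 in WT. Per 1000 macrophage marker counts, 7 members were higher in KO without overlap and 0 lower. Per 1000 endothelial marker counts, 3 were higher and 1 lower. Per 1000 progenitor and fibroblast marker counts, 6 members, Fgf1, Fgf2, Fgf10, Fgf11, Fgfr1 and Klb, were higher in KO without overlap, and 0 were lower. Fgf10 was at 12.1 to 31.5 in KO and 5.91 to 9.75 in WT on that scale, and Fgf7 at 0.813 to 1.48 in KO and 1.40 to 1.94 in WT. The part of cell makeup in the members' differences was not tested.

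Each member was also set beside the gene with the most similar course over the 8 libraries, by the root mean square difference of centred log2 values among 12776 genes with a mean of at least 50. Klb was closest to Atp2b4, a plasma membrane calcium pump (0.083), Fgf2 to Dgat1, an enzyme of triglyceride synthesis (0.097), Fgf10 to Fign (0.098) and Fgf11 to Pnldc1 (0.11). For Fgf7 the closest was Ptprs, a receptor phosphatase (0.14). Fgf1 was closest to Sh2d4a (0.093) and Fgf13 to the small heat shock gene Hspb2 (0.11). Within 0.25 lay 337 genes for Fgf1, 179 for Klb, 170 for Fgf10, 162 for Fgf2, 48 for Fgf13, 33 for Fgf11 and 14 for Fgf7. The gene named is only the nearest of these, and for Fgf2 the next, Inca1, was nearly as close (0.099). Fgfr1, whose level varied little, had Zfp983 (0.081) and 3328 genes in all within 0.25, whereas Fgfr2 had none within 0.25 (closest Hspb6, 0.28) and Fgf21 only Glyctk (0.19). These values describe 8 libraries in 2 groups, so that genes split by genotype in the same direction and by a like amount tend to resemble each other.

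Beyond the 10 members, 75 genes of the FGF pathway were listed, of which 59 passed the filter. They were listed with earlier results of these data known, so the shares below are a description. At a limma adjusted p under 0.05, 15 were higher and 18 lower in KO, or 25.4% and 30.5%, where 20.2% and 21.5% of all genes tested were, and the median log2 fold change was -0.16, against -0.01 for the whole table. The count of higher pathway genes was 8 without WT replicate 3. Of all genes tested, 2707 of 17375 were higher in that setting, against 3592 of 17798 in the main fit. Of the 15 other FGF ligand genes, 6 were in the table and 4 passed the filter, and Fgf12 alone fell, by 3.67 on the log2 scale (SE 0.57, limma adjusted p = 0.00178). Fgf12, of the intracellular group, had 8.04, 6.84, 3.22 and 1.21 normalized counts in KO replicates 1 to 4, against 40.4, 123, 93.8 and 34.6 in WT replicates 1 to 4. The tract markers fell alongside it in 7 of 9 tested genes, with sums of 21.8 to 1190 in KO and 53727 to 121078 in WT and 5 of the 10 listed at 0 in at least 1 KO library, and their part in the Fgf12 value was not tested. Fgf9, Fgf14 and Fgf18 did not pass, at -0.66, -0.18 and 0.40, though Fgf9 passed without KO replicate 4 (-1.23, limma adjusted p = 0.0306).

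Of the other receptors, Fgfrl1, which lacks the kinase domain, rose to 8234 to 10573 normalized counts in KO, against 2093 to 4108 in WT, or 1.57 on the log2 scale (SE 0.21, limma adjusted p = 0.000939). Fgfr3 rose too, to 372 to 467 in KO, against 118 to 280.0 in WT (1.11, SE 0.24, limma adjusted p = 0.00665). Lctl, a relative of Klb, fell by 0.94, a call lost without KO replicate 3 or 4 or WT replicate 2 or 4 (limma adjusted p = 0.0602, 0.0639, 0.0558 and 0.0577). Fgfr4 did not pass (0.84, SE 1.83).

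Among the genes for heparan sulphate, the sugar chain that FGFs and their receptors bind, calls went both ways among syndecans and glypicans. Sdc3 (-1.53, limma adjusted p = 0.000806), Sdc1 (-1.37, limma adjusted p = 0.00591) and Sdc4 (-0.54, limma adjusted p = 0.00223) fell and Sdc2, Gpc3 and Gpc4 rose, Gpc4 by 1.00 (limma adjusted p = 0.0148), while 6 of the 12 tested did not pass, among them Gpc1 (-0.32) and Gpc6 (-0.36). Of 9 enzymes that build or edit the chains, 4 rose and 3 fell. The 6-O-sulphotransferases Hs6st1 (-1.20) and Hs6st2 (-2.34) fell with limma adjusted p values of 0.00055 and 0.00248, and Sulf2, which removes 6-O-sulphate outside the cell, rose by 0.86 (limma adjusted p = 0.0027).

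Downstream of the receptors, adaptor genes went both ways, 3 of 10 higher and 3 lower. Grb2, which links receptors to Ras, fell by 0.82 (limma adjusted p = 0.00117), and the phosphatase gene Ptpn11 rose by 0.54 (limma adjusted p = 0.00307). Frs2, the main docking protein of FGF receptors, did not pass (-0.19, limma adjusted p = 0.0583). Of 10 feedback inhibitors, 3 rose and 2 fell, and the call of Spry1, one of those that rose (0.40), was lost without KO replicate 1, 3 or 4 or WT replicate 3 (limma adjusted p = 0.0526 to 0.0688). Spred1 fell by 1.12 (limma adjusted p = 0.000778) and Dusp5 by 1.93 (limma adjusted p = 0.00404), Il17rd rose by 0.55 (limma adjusted p = 0.00585), and Dusp6, a phosphatase of ERK, did not pass (-0.34, limma adjusted p = 0.0641). Of 6 transcription factor genes that ERK signalling induces, 4 fell and 0 rose, with Etv5 at -1.12 (limma adjusted p = 0.000469) and Myc at -0.90 (limma adjusted p = 0.00562). Of the other 2 that fell, the call of Etv1 was lost without KO replicate 1, 3 or 4 or WT replicate 1, 3 or 4 (limma adjusted p = 0.0578 to 0.0903), and that of Fos without KO replicate 1, 2 or 3 or WT replicate 1 or 3 (limma adjusted p = 0.0522 to 0.0725). Egr1 and Etv4 did not pass (0.47 and -0.87). Macrophage marker sums, given above, were lower in KO alongside these genes, and their part was not tested. Of the sodium channel genes and partners of the intracellular members, 1 of 4 tested, Scn8a, fell, a call lost under edgeR, quantile normalization, no filter and 6 left-out settings.

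**Figure D5:**
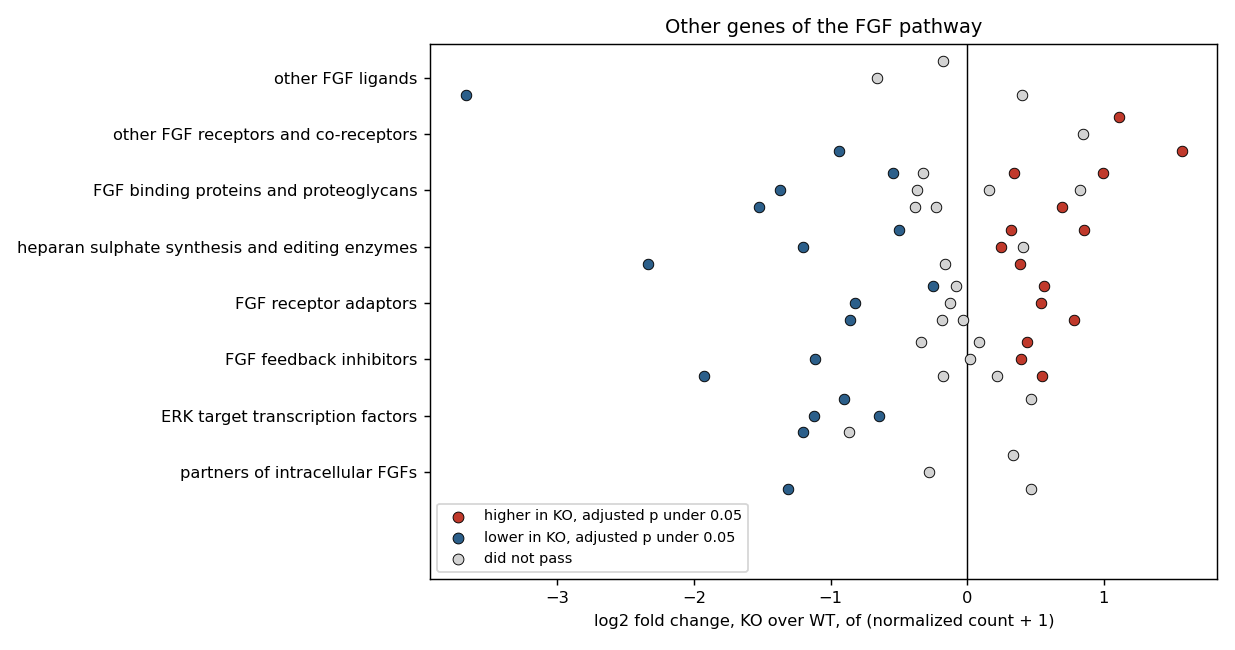
Log2 fold change, KO over WT, of the 59 other pathway genes that passed the filter, grouped by role, with red points higher in KO, blue points lower in KO and grey points not past the test. Calls in both directions occur in 5 of the 8 groups, and the far left point is Fgf12 at -3.67.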

How the data were processed

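RNA was measured in 4 Ccdc92 KO and 4 WT libraries of epididymal fat, grouped and numbered by the sample labels. Each gene's deposited value is a signal, its reads over the library's size factor, and STAR 2.7.7, DESeq2 and GRCm38.p6 are named, without their role, per the submitters' processing notes. Which counter, strand setting or filter the authors used is not given in the sources. Dividing by the smallest step in each library turned 100.0% of nonzero values into whole reads (tolerance 0.01 read), 23681088 to 33817478 per library. Of 24821 gene identifiers, 24802 matched GENCODE M21 without their version and 19 did not.

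Log2(normalized count + 1) was fitted with limma 3.58.1 in R 4.3.3 (group alone, variance trend, robust moderation, two-sided, Benjamini-Hochberg over all genes) for genes with at least 10 in at least 4 libraries. That scale understates changes of low genes. A threshold of 0.05 was used. edgeR 4.0.16 (quasi-likelihood, TMM) and DESeq2 1.42.0 on the recovered reads, other pseudocounts (0.5 and 5), no filter, a filter at 50, quantile normalization, a replicate block and left-out libraries were alternatives. The fit was tested on simulated counts. It recovered 6% of 1.5-fold, 42% of 2-fold, 88% of 4-fold and 96% of 8-fold changes, and called 3 of 17363 unchanged genes. The simulation held 17557 genes, nearly all unchanged, whereas 41.7% of the genes tested were called in the real data. Adjustment is stricter where few genes change, so these recovery rates do not describe the fit to the real data. A gene that did not pass may still differ. No 2 libraries of a group matched within sampling noise (lowest chi-square over its degrees of freedom 24.7).

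The members and lists were chosen with earlier results of these data known. The text names the members, Ccdc92, up to 4 genes per pathway list with the smallest p, and the gene most like each member. Sdc2, Gpc3, Frs2, Dusp6, Egr1, Etv4, Gpc1 and Gpc6, with Kl, Fgf16, Fgf22, Nudt6, Hbb-bs and the marker genes, were named outside this rule after their values were seen. Sequences come from RefSeq (GRCm38.p6) and were found for 8 of the 10 members.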

Additional observations from a re-analysis of the deposited data

Results flagged for a closer look

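A library stood far from the other 3 of its group in 3 of the 106 groups of 4 examined, where chance alone gives about 1 in 20. Fgf9, a ligand gene, had 169.8 normalized counts in KO replicate 4, against 24.7 to 43.7 in the other KO libraries, and without it Fgf9 was lower in KO (-1.23, limma adjusted p = 0.0306). Fgf18, another ligand gene, had 103.1 in the same library, against 44.1 to 52.9 in the other KO libraries. KO replicate 4 also had the highest summed level of the 6 mesothelial markers, at 14497, against 2094 to 6019 in the other KO libraries and 1572 to 8337 in WT, and the part of these cells was not tested. Fgfr4, a receptor gene, had 0.0 normalized counts in WT replicate 1, against 18.6 to 22.1 in the other WT libraries.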

How the results depend on the processing

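No pairing by replicate number was assumed in the main fit. The correlations of same-numbered deviations were -0.143, 0.051, -0.041 and 0.172, which cannot settle whether the numbers mark pairs. With the replicate block, 2989 genes were higher and 3277 lower in KO, against 3592 and 3831 without it, and 12 and 16 pathway genes, against 15 and 18. The block ended the calls of Fos and Etv1 (limma adjusted p = 0.0648 and 0.0676) among the named genes. On recovered reads edgeR called 3747 genes higher and 3712 lower, and DESeq2 4080 and 4256. Quantile normalization raised the median gene by 0.104 on the log2 scale, brought Fgf21 to -0.10 and gave 4593 higher and 3257 lower genes. Leaving out libraries gave 8 to 15 higher and 12 to 16 lower pathway genes, the lowest count of higher genes being the 8 without WT replicate 3. It gave 2654 to 3398 higher and 2774 to 3647 lower genes overall. Members kept their sign in 168 of 169 alternative values, the exception being Fgfr2 without WT replicate 1 (-0.11). For Fgf2, Fgf7, Fgf10, Fgf11 and Klb, whose groups did not overlap, leaving out libraries could not change the sign. The count of kept signs is therefore no further result. Only 1 value moved by more than the gene's within-group SD, Fgf11 under quantile normalization (1.63). Over the alternatives, the limma adjusted p of the calls that could be lost reached 0.115 for Lctl, 0.0755 for Spry1, 0.0725 for Fos, 0.154 for Etv1 and 0.169 for Scn8a. Depth limits Fgf21 most, at 5 to 32 reads a library.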

Other observations

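Ligand and co-receptor genes below the filter are given as values. Kl, which encodes the co-receptor of FGF23, had 82.7, 29.9, 2.15 and 0 normalized counts in KO replicates 1 to 4, against 0.917, 6.73, 0 and 0.936 in WT replicates 1 to 4. Fgfr4, which passed the filter, followed a like course, with 244, 88.9, 3.22 and 0 in KO replicates 1 to 4, against 0, 22.1, 18.6 and 18.7 in WT replicates 1 to 4. The epithelial markers Epcam and Cdh1 ran the same way within KO, Epcam at 407, 138, 15.05 and 7.28 and Cdh1 at 218, 72.6, 10.7 and 4.85 in KO replicates 1 to 4, but were at 570 to 1362 and 770 to 1553 in WT. Their part in these values was not tested. The FGF ligand gene Fgf16 had 6.89 to 20.5 in KO and 0.962 to 7.43 in WT, and Fgf22 had 0 to 5.37 in KO and 1.83 to 4.68 in WT.

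Of 70 quotients of a member over a marker sum, some were nearly alike across the WT libraries and were picked for that after their values were seen. Fgf13 was at 1.68, 1.97, 0.919 and 0.592 per 1000 adipocyte marker counts in KO replicates 1 to 4, against 3.10, 3.09, 3.26 and 3.18 in WT replicates 1 to 4. Fgf2 was at 19.4 to 39.1 per 1000 endothelial marker counts in KO and 14.9 to 15.7 in WT, whereas per 1000 adipocyte marker counts it was at 0.654 to 0.902 in KO and 0.902 to 1.13 in WT. Fgfr1 was at 83.1 to 109 per 1000 progenitor and fibroblast marker counts in KO and 57.9 to 62.2 in WT, whereas per 1000 adipocyte marker counts it was at 4.41 to 7.24 in KO and 9.92 to 30.7 in WT. No test was made of these quotients.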
